A study of Mus musculus with 16 samples.

Results

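The enzymes that build ceramide from serine and palmitoyl-CoA were followed across mouse livers with and without Degs1, on chow and on a high-fat diet. The set holds 10 genes of the 53801 in the count table, chosen by symbol and not by any measured value: Sptlc1, Sptlc2, Sptssa, Kdsr, Cers2, Cers4, Cers5, Cers6, Degs1 and Degs2. All 10 had 1 row each. RNA came from 16 livers in 4 groups of 4: Degs1 liver-specific knockouts on normal chow, controls on normal chow, Degs1 liver-specific knockouts on a high-fat diet, and controls on a high-fat diet. The comparisons ask what loss of the last enzyme of the route does to the messages of the steps before it, and whether diet changes that. The sources used here do not give the age, sex or strain of the mice, the length of feeding, the genotype of the controls, the Cre driver or the part of Degs1 that was removed. By their labels, high-fat controls were numbered 61 to 76, high-fat knockouts 82 to 92, chow knockouts 179 to 187 and chow controls 194 to 220. These ranges do not overlap, so each diet or knockout comparison is also one between separate runs of animal numbers. The part of this in the results was not tested.

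De novo ceramide synthesis runs on the endoplasmic reticulum. Serine palmitoyltransferase joins serine to palmitoyl-CoA, ketodihydrosphingosine reductase reduces the product, ceramide synthases attach an acyl chain of a length that depends on the isoenzyme, and dihydroceramide desaturase inserts the double bond that turns dihydroceramide into ceramide. In liver the products feed membranes and lipoproteins, and ceramides are known for impairing insulin signalling to Akt.

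The libraries held 11938596 to 23250885 counts each. Hepatocyte messages dominated (Alb averaged 72730 CPM, read counts scaled to library size with TMM factors). Of 7 fat or pancreas markers Cpa1, Prss2 and Pnlip were at 0 in 13 to 15 of the 16 livers. Adipoq and Plin1 were at 0 in 10, but reached 6.59 and 4.06 CPM at their highest. Cela1 (mean 20.4 CPM) and Cidec (0.390 to 50.7 CPM) were found in all. One measure of the libraries moved with the groups, and whether it is technical was not tested. The percentage of counts assigned to sense-intronic and to-be-experimentally-verified (TEC) loci, a proxy for unspliced RNA, was 0.0463% to 0.0878% in chow knockouts, 0.0263% to 0.0411% in chow controls, 0.162% to 0.191% in high-fat knockouts and 0.0218% to 0.164% in high-fat controls. Its low end in high-fat controls, 0.0218%, was control 3, which also stood apart for several of the genes described here. The part of this percentage in the results was not tested beyond the fits given below. Because it moved with the groups, fits with it as a covariate cannot fully separate it from knockout or diet.

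Per unit of transcript length, Cers2 was the most abundant member in every group and Degs2 the least. Levels are given as TPM, which scales counts by merged exon length and library. In chow knockouts the order of the group means was Cers2 at 168.5, Sptssa at 42.8, Degs1 at 32.0, Sptlc1 at 18.3, Sptlc2 at 9.04, Kdsr at 7.13, Cers6 at 4.23, Cers5 at 1.56, Cers4 at 0.559 and Degs2 at 0.0418 TPM. In chow controls the order was Cers2 at 209 ± 42.9, Degs1 at 74.0 ± 8.71, Sptssa at 39.9 ± 0.496, Sptlc1 at 21.2 ± 3.41, Sptlc2 at 9.34 ± 1.57, Kdsr at 6.74 ± 1.22, Cers6 at 5.55 ± 1.502, Cers5 at 1.81 ± 0.218, Cers4 at 0.599 ± 0.117 and Degs2 at 0.194 ± 0.279 TPM (SD, n = 4). Degs1 therefore ranked above Sptssa in controls and below it in knockouts, with overlapping ranges in both knockout groups and in high-fat controls. Neighbours whose ranges overlapped in chow controls were Sptlc2 with Kdsr, Kdsr with Cers6, and Cers4 with Degs2. The other neighbours in chow controls did not overlap.

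**Figure D1:**
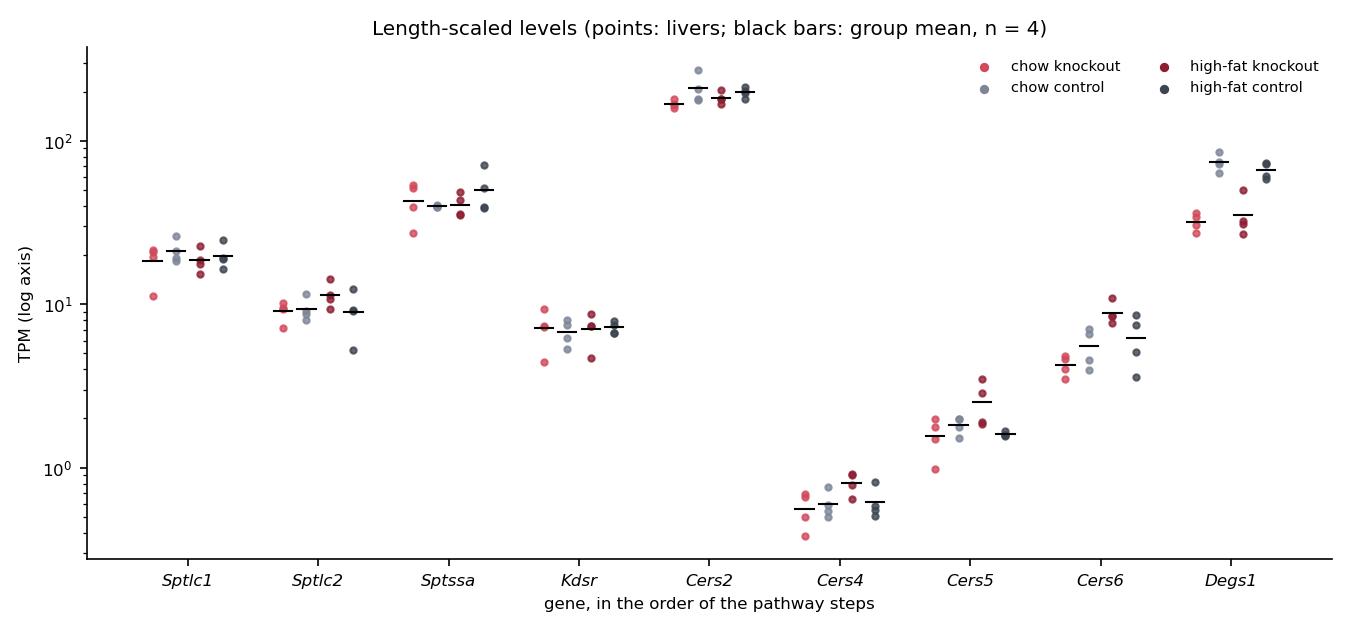
TPM on a log axis for 9 genes in the order of the pathway steps, with a point for each liver and a black bar for the mean of each group of 4; Degs2 is left out because several livers had no count. Cers2 lies above all others in every group, and Degs1 is the gene whose knockout and control points separate most clearly, at means of 32.0 and 74.0 TPM on chow.

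Degs1 encodes the desaturase that the knockout removes. Its GRCm38 locus is chr1:182275772-182282804, minus strand. It stood at 39.3, 39.3, 37.4 and 35.9 CPM in chow knockouts, against 85.5, 80.4, 87.9 and 84.9 CPM in chow controls. It stood at 41.6, 28.1, 26.1 and 29.2 CPM in high-fat knockouts, against 60.2, 62.2, 101 and 70.3 CPM in high-fat controls. Every knockout liver lay below every control liver on the same diet. The mean left in knockouts was 44.9% of the control mean on chow (single livers 42.4% to 46.4%) and 42.6% on the high-fat diet (35.6% to 56.7%). The counts cover the whole gene and come from whole liver, so transcripts without the removed part, transcripts of other cell types and hepatocytes that kept the gene cannot be told apart in this remainder. Fewer cells of a type and less RNA per cell cannot be told apart in whole liver.

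The log2 fold change of Degs1 was -1.16 on chow (SE 0.17, 95% interval -1.51 to -0.81, edgeR adjusted p = 0.0123), and with high-fat feeding it was -1.23 (SE 0.17, -1.58 to -0.88, adjusted p = 0.00376). Averaged over the diets it was -1.19 (SE 0.12, -1.44 to -0.95, adjusted p = 0.000108), and Degs1 then had the smallest p of all 14351 genes tested. The knockout effect on the high-fat diet minus that on chow was -0.07 (95% interval -0.56 to 0.41, adjusted p = 0.929), so a difference between the diets of more than about 0.56 on the log2 scale lay outside the interval. Diet itself gave -0.28 in knockouts (SE 0.17, adjusted p = 0.274) and -0.21 in controls (SE 0.16, adjusted p = 0.577), and neither passed. The diet-averaged effect passed in all 22 alternative fits. The high-fat call was lost when only its 2 groups were fitted, and also when the unspliced share entered as a covariate. The chow call was lost with that covariate and without any 1 chow knockout or chow control 1, 3 or 4. The chow call passed in 15 of 23 and the high-fat call in 21 of 23, with log2 fold changes of -1.17 to -0.96 (adjusted p 4.59e-08 to 0.118) and -1.40 to -0.92 (adjusted p 4.49e-09 to 0.138).

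Degs2, the second desaturase, which in addition hydroxylates dihydroceramide to phytoceramide in skin and gut, was close to undetected. The livers held 0, 2, 0 and 1 reads in chow knockouts, 0, 3, 14 and 0 in chow controls, 1, 5, 0 and 2 in high-fat knockouts and 0, 2, 1 and 3 in high-fat controls. A count of 3 corresponds to 0.129 to 0.251 CPM in these libraries, counting error only, so most livers were at or under that floor. Degs2 was the 1 member of 10 that did not pass the filter on low counts. On log2(CPM + 1), the two-sided exact permutation test over 70 assignments gave p = 0.429 for knockout on chow and p = 0.800 on the high-fat diet, and p = 0.457 for diet in knockouts and p = 0.543 in controls. Its share of the summed TPM of both desaturases averaged 0.123% in chow knockouts, 0.274% in chow controls, 0.372% in high-fat knockouts and 0.121% in high-fat controls, and reached at most 0.909% in any liver. A difference in Degs2 between the groups was not detectable at this depth. Its exons share 10.8% of their length with Evl on the other strand, and whether reads were assigned by strand is not stated in the labels.

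**Figure D2:**
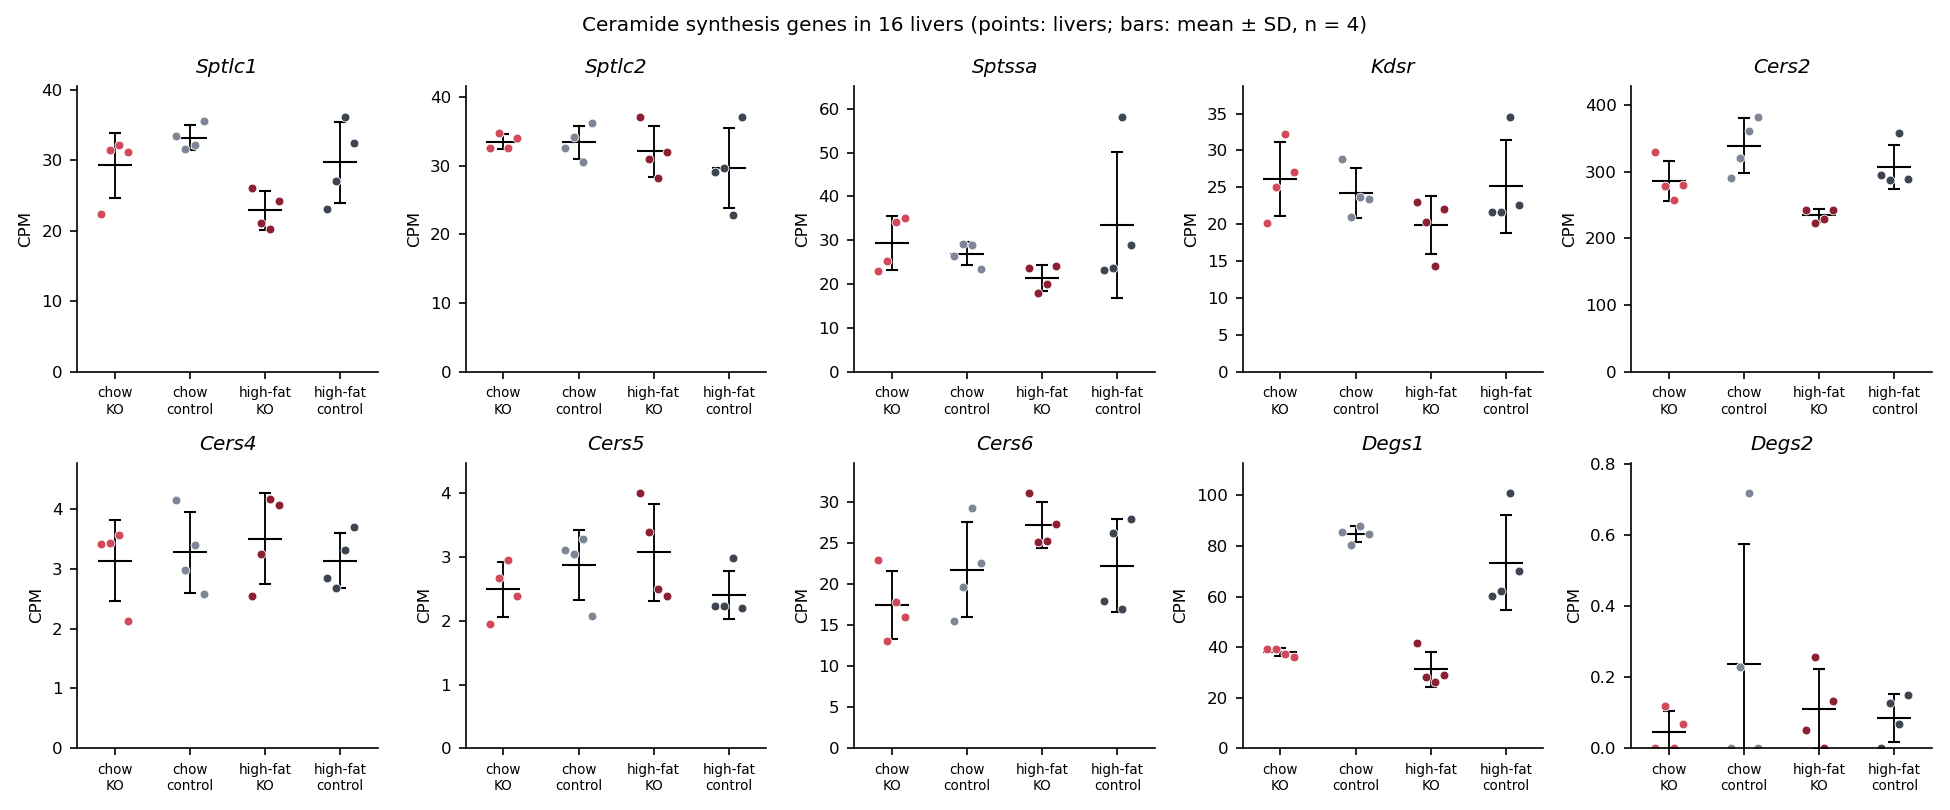
CPM of each of the 10 genes, with a point for each liver and bars for the mean ± SD of each group of 4; every axis starts at 0, and bars that would pass below it are drawn to 0. Degs1 is the panel in which both knockout groups lie wholly below their controls, and high-fat control 3 is the high point of its group for Sptssa (58.2 CPM), Kdsr (34.6 CPM) and Cers2 (357 CPM).

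Apart from Degs1, no member passed the edgeR test in any comparison. For knockout on chow 1 of 9 members tested fell and 0 rose, where 0.0139% of all genes tested fell and 0% rose. In high-fat livers knockout lowered 1 of 9 and raised 0, where 0.0488% of all genes fell and 0.0627% rose, 0.111% in all. With the diets averaged 1 of 9 fell and 0 rose, where 0.125% of all genes fell and 0.0488% rose. For diet 0 of 9 passed in knockouts, where 10.6% of all genes did, and 0 of 9 in controls, where 1.83% did (0.941% higher and 0.885% lower). For the interaction 0 of 9 passed, as did 0% of all genes. For diet in knockouts DESeq2 called Cers6 alone, among 2269 of the 14351 genes. There limma-voom called Cers6, Sptlc1, Sptssa, Kdsr and Cers2, among 4345 genes, where edgeR called 1516. Both tools called 0 members for diet in controls and for the interaction. Over all genes DESeq2 called 794 and 83 in these, and limma-voom 790 and 9. At an unadjusted p under 0.05 the members counted were 1 for knockout on chow (9.52% of all genes), 4 for knockout in high-fat livers (21.4%), 3 with the diets averaged (20.7%), 3 for diet in knockouts (28.8%), 0 for diet in controls (17.1%) and 1 for the interaction (11.3%). The median log2 fold change of the 9 was -0.18 for knockout on chow and -0.34 on the high-fat diet, beside -0.01 and 0.03 over all genes tested, and it was -0.28 for diet in knockouts and -0.14 in controls, beside 0.02 and 0.01. These medians cover only the members that passed the filter. The high-fat median was -0.13 without high-fat control 3 and -0.11 over the 8 members other than Degs1, and with Degs1 left out the medians were -0.12 for knockout on chow, -0.17 for diet in knockouts and -0.10 for diet in controls. The comparisons share groups: high-fat knockouts enter both the knockout and the diet comparison, as does each other group.

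**Figure D3:**
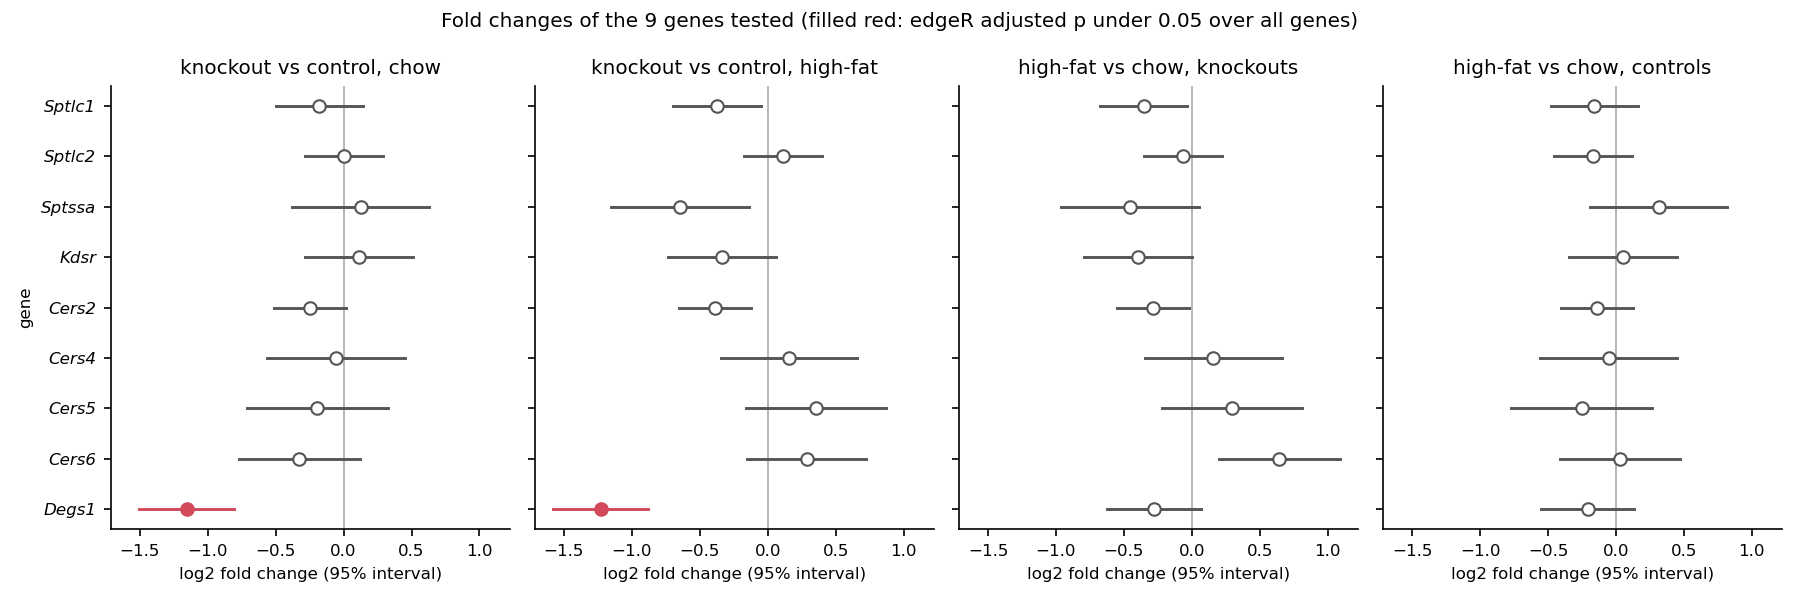
Log2 fold changes of the 9 genes tested with their 95% intervals in the 4 comparisons between groups; red filled points passed an edgeR adjusted p of 0.05 over all genes. Degs1 passed in both knockout comparisons at -1.16 and -1.23, and Cers6 for diet in knockouts, at 0.65, is the point outside Degs1 whose interval lies farthest from 0.

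Serine palmitoyltransferase, the first and rate-limiting step, is represented by 3 subunits, and none passed edgeR in any comparison. Their log2 fold changes for diet in knockouts were -0.36 for Sptlc1 (SE 0.15, edgeR adjusted p = 0.136), -0.06 for Sptlc2 (SE 0.14, 0.802) and -0.46 for Sptssa (SE 0.24, 0.222). There limma-voom called Sptlc1 (-0.44, adjusted p = 0.00836) and Sptssa (-0.61, 0.00584). With high-fat control 3 and chow knockout 1 left out edgeR called both (0.0179 and 0.0141), and without control 3 alone it called Sptssa (0.0414). Over all genes limma-voom called 4345, and edgeR 3273 without both livers and 2914 without control 3, beside 1516 with all livers. Over all alternatives the adjusted p was 0.00836 to 0.867 for Sptlc1 and 0.00584 to 0.751 for Sptssa. Sptlc2, the catalytic subunit that carries the cofactor, was the steadiest. It stood at 32.6, 34.7, 32.6 and 34.0 CPM in chow knockouts, against 32.6, 34.1, 30.6 and 36.2 CPM in chow controls. It stood at 37.1, 31.0, 28.2 and 32.0 CPM in high-fat knockouts, against 29.1, 29.7, 22.9 and 37.0 CPM in high-fat controls. All groups overlapped. The 95% interval of its log2 fold change was -0.28 to 0.29 for knockout on chow, -0.18 to 0.40 on the high-fat diet and -0.15 to 0.26 with the diets averaged, so an averaged change of more than 0.26 on the log2 scale lay outside the interval.

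Sptlc1, the partner subunit needed for a stable enzyme, had values below 0 for knockout on both diets that did not pass. It stood at 22.3, 31.5, 32.1 and 31.2 CPM in chow knockouts, against 33.4, 31.7, 32.2 and 35.6 CPM in chow controls. It stood at 26.2, 21.1, 20.3 and 24.2 CPM in high-fat knockouts, against 23.1, 27.1, 36.2 and 32.4 CPM in high-fat controls. Groups overlapped on both diets. The log2 fold changes were -0.18 on chow (SE 0.15, edgeR adjusted p = 0.710) and, in high-fat livers, -0.37 (SE 0.15, 0.174), and -0.28 averaged (SE 0.11, 0.181), and the high-fat value was -0.25 without control 3 (0.493). The ratio of Sptlc1 to Sptlc2 in TPM, which does not depend on library scaling, was 1.55 to 1.73 in high-fat knockouts and 1.81 to 3.61 in high-fat controls. On chow it was 1.57 to 2.25 in knockouts and 2.12 to 2.41 in controls.

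Sptssa encodes a small activating subunit that sets the enzyme's acyl-CoA preference and raises its activity. It stood at 23.02, 25.3, 34.1 and 35.0 CPM in chow knockouts, against 26.5, 29.1, 28.9 and 23.4 CPM in chow controls. It stood at 23.7, 17.9, 20.1 and 24.0 CPM in high-fat knockouts, against 23.3, 23.8, 58.2 and 28.9 CPM in high-fat controls. The 58.2 CPM belongs to high-fat control 3, and the other high-fat livers of both genotypes lay between 17.9 and 28.9 CPM. Sptssa had a log2 fold change of 0.13 on chow (SE 0.24, edgeR adjusted p = 0.892) and, in high-fat livers, -0.65 (SE 0.24, 0.144), and without control 3 the value on the high-fat diet was -0.23 (0.565). It was -0.01 with the unspliced share as a covariate (0.996), within a range over alternatives of -0.79 to -0.01 and adjusted p 0.0268 to 0.996, which passed in 1 of 23, the fit with no filter on low counts. The interaction was -0.77 (SE 0.34, adjusted p = 0.409).

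Kdsr encodes the reductase of the second step. Its range was 20.2 to 32.3 CPM in chow knockouts and 21.0 to 28.9 CPM in chow controls, and 14.3 to 22.98 CPM in high-fat knockouts and 21.6 to 34.6 CPM in high-fat controls. Again control 3 was the highest, with the other high-fat controls at 21.6, 21.7 and 22.6 CPM. Kdsr had a log2 fold change of 0.11 on chow (SE 0.19, edgeR adjusted p = 0.872) and, in high-fat livers, -0.34 (SE 0.19, 0.311), which was -0.13 without control 3 (0.781).

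Ceramide synthases differ in the acyl chain they attach. Cers2 makes very-long-chain species and is the main liver isoenzyme, Cers5 and Cers6 make mainly the palmitoyl form, and Cers4 makes long-chain species of intermediate length. Cers2 held 95.6% to 96.8% of the summed TPM of Cers1 to Cers6 in chow knockouts, 95.6% to 96.9% in chow controls, 93.2% to 94.2% in high-fat knockouts and 95.04% to 97.0% in high-fat controls. Every high-fat knockout liver thus had a smaller Cers2 share than each of the other 12 livers. How often shares within other gene families separate groups in this way was not examined. Cers1 and Cers3 were at 0 TPM in most livers and at most 0.102 TPM in any.

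Cers2 was the member after Degs1 with the lowest p in knockouts. It stood at 328.6, 277.9, 257.5 and 279.4 CPM in chow knockouts, against 290.5, 320.2, 360.8 and 382.2 CPM in chow controls. It stood at 242.4, 223.1, 229.4 and 242.1 CPM in high-fat knockouts, against 294.4, 287.4, 357 and 288.9 CPM in high-fat controls. The chow groups overlapped and the high-fat groups did not. Groups failed to overlap downwards for 2 of 9 members on the high-fat diet, Degs1 and Cers2, where 7.78% of all genes did, and for Degs1 alone on chow, where 2.9% did. The log2 fold change of Cers2 was -0.24 on chow (SE 0.13, edgeR adjusted p = 0.543), -0.39 in high-fat livers (SE 0.13, 0.116) and -0.32 averaged (SE 0.09, 0.135), so none passed. DESeq2 called it on the high-fat diet (-0.39, adjusted p = 0.0445) and averaged (-0.30, 0.0345). These were the lowest adjusted p among ranges of 0.0445 to 0.656 and 0.0345 to 0.673. In these comparisons DESeq2 called 633 and 330 of all genes, where edgeR called 16 and 25. On TPM the high-fat groups overlapped, at 167 to 205 TPM in knockouts and 181 to 213 TPM in controls. TPM is not scaled by TMM, and it put the median of all genes 0.25 higher on the log2 scale for knockout under high-fat feeding and 0.39 higher for diet in knockouts than CPM did. For diet in knockouts Cers2 was lower on CPM without overlap, the 1 of 9 members to be so, where 12.4% of all genes were (-0.29, SE 0.13, edgeR adjusted p = 0.143), but its mean TPM was 183 in high-fat knockouts, against 168.5 in chow knockouts, so its direction turned with the scaling.

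Cers6, which makes the palmitoyl form, had its highest group mean in high-fat knockouts, though no comparison passed. It stood at 31.1, 25.2, 25.3 and 27.4 CPM in high-fat knockouts, against 22.9, 13.2, 17.9 and 15.98 CPM in chow knockouts. Every high-fat knockout lay above every chow knockout, which held upwards for 1 of 9 members where 12.1% of all genes did. Controls stood at 17.97, 26.3, 17.0 and 28.0 CPM on the high-fat diet, against 15.6, 19.7, 29.3 and 22.6 CPM on chow, and overlapped. In controls 0 of 9 members had no overlap between the diets, where 7.23% of all genes had none. For diet in knockouts the log2 fold change was 0.65 (SE 0.21, 95% interval 0.20 to 1.09, edgeR adjusted p = 0.0569), which missed the threshold, and in controls it was 0.03 (SE 0.21, 0.964). The difference between the genotypes, 0.61 (95% interval -0.01 to 1.24), did not pass (SE 0.30, adjusted p = 0.452). For diet in knockouts Cers6 passed in 9 of 23 alternatives, DESeq2 among them (0.65, adjusted p = 0.0288, range 0.00538 to 0.208), with a positive value in each, from 0.54 to 0.81. For knockout it had -0.33 on chow (SE 0.21, 0.624) and 0.29 on the high-fat diet (SE 0.21, 0.422).

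The ratio of Cers2 to Cers6 within a liver, which is free of library scaling, was 18.8, 21.4, 21.9 and 21.4 in high-fat knockouts, against 39.5, 26.4, 50.7 and 25.0 in high-fat controls. It was 34.6, 51.0, 34.8 and 42.2 in chow knockouts, against 45.1, 39.2, 29.7 and 40.9 in chow controls. High-fat knockouts thus had the 4 lowest ratios of the 16 livers, with a mean of 20.9 ± 1.39, against 35.4 ± 12.2 in high-fat controls (SD, n = 4 each), while chow knockouts and chow controls overlapped widely. Cers6 held 4.30% to 4.96% of the summed ceramide synthase TPM in high-fat knockouts and 1.91% to 3.81% in high-fat controls. Between high-fat and chow knockouts Cers2 was lower on CPM without overlap, as 12.4% of all genes were. Cers6 was higher without overlap, as 12.1% were, so their ratio was bound to separate those groups. How many other gene pairs separate in this way was not examined. These shares and ratios are descriptions with no test.

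On the strand of Cers6, 6 TEC loci lie inside its introns and share no exon base with it, which gives a reading of intronic signal at this gene. The 6 loci together had 6.45, 9.21, 6.02 and 9.79 CPM in high-fat knockouts, against 10.2, 7.58, 0.338 and 0.700 CPM in high-fat controls. They had 3.71, 2.78, 1.57 and 1.02 CPM in chow knockouts, against 0.761, 0.381, 0.308 and 0.226 CPM in chow controls. The signal was thus higher in every chow knockout than in every chow control, and split the high-fat controls into 2 high and 2 low livers. The chow controls held only 11, 5, 6 and 5 reads over the 6 loci, and high-fat controls 3 and 4 held 5 and 14. The library-wide sense-intronic and TEC percentage was also higher in every chow knockout (0.0463% to 0.0878%) than in every chow control (0.0263% to 0.0411%). How often other loci separate these groups was not examined. In high-fat controls 1 and 2, with the high intronic signal, Cers6 itself stood at 17.97 and 26.3 CPM, and in controls 3 and 4, with the low signal, at 17.0 and 28.0 CPM. With the unspliced share as a covariate, Cers6 for diet in knockouts was 0.57 (edgeR adjusted p = 0.208).

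**Figure D4:**
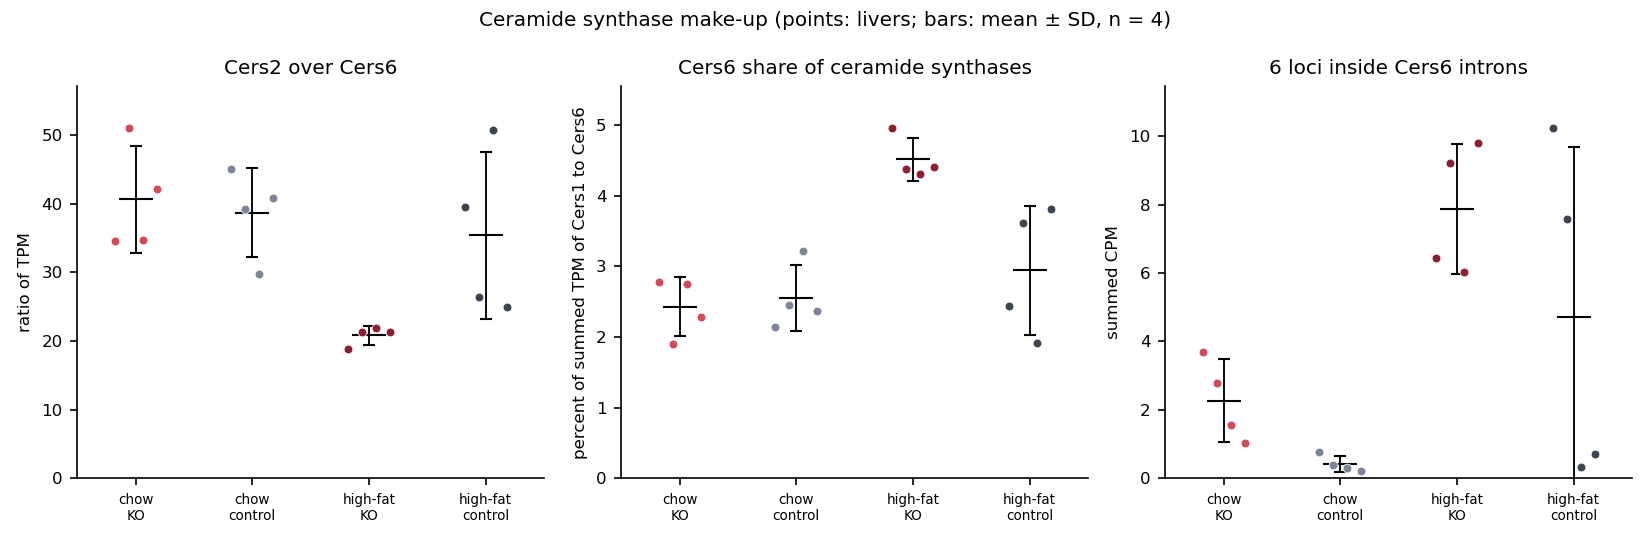
Ratio of Cers2 to Cers6 in TPM, Cers6 share of the summed TPM of Cers1 to Cers6 and summed CPM of 6 loci inside Cers6 introns, with a point for each liver and bars for the mean ± SD of each group of 4 (drawn to 0 where they would pass it). High-fat knockouts hold the lowest ratios, 18.8 to 21.9, and the highest Cers6 shares, 4.30% to 4.96%, while 2 of the high-fat controls match them in intronic signal.

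Cers5 and Cers4 were low throughout, at 1.95 to 4.003 CPM and 2.12 to 4.16 CPM over the 16 livers. Cers5 had a log2 fold change of -0.20 for knockout on chow (SE 0.25, edgeR adjusted p = 0.815) and, in high-fat livers, 0.36 (SE 0.24, 0.398). Cers4 had -0.06 (SE 0.24, 0.952) and 0.15 (SE 0.24, 0.720). The intervals were wide at this level, for Cers5 -0.16 to 0.87 on the high-fat diet.

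Around the 10 enzymes, the 4 regulators of serine palmitoyltransferase had values below 0 for knockout in high-fat livers, and 0 of 4 passed edgeR in either knockout comparison. The Ormdl proteins inhibit the enzyme when ceramide is plentiful, and Rtn4 encodes a further inhibitor. At an unadjusted p under 0.05 there were 3 of 4 on the high-fat diet, where 21.4% of all genes were, and 0 of 4 on chow, where 9.52% were. Ormdl1 stood at 17.0, 12.5, 15.9 and 17.5 CPM in high-fat knockouts, against 18.8, 22.2, 59.0 and 27.3 CPM in high-fat controls, with control 3 again the highest (log2 fold change -1.02, SE 0.27, edgeR adjusted p = 0.0982). Without control 3 it was -0.52 (0.244). Ormdl2 had -0.52 (SE 0.17, 0.114), and -0.33 without control 3 (0.368), with 21.6 to 27.9 CPM in high-fat knockouts and 30.9 to 49.0 CPM in high-fat controls. Ormdl3 had -0.30 on chow (SE 0.15, 0.539) and -0.33 averaged (SE 0.11, 0.145). The median log2 fold change of the 4 was -0.44 on the high-fat diet, beside 0.03 over all genes, and -0.39 without control 3.

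Of 24 genes that use or break down ceramide, 21 were tested and 0 passed edgeR for knockout on either diet, with 5 of 21 at an unadjusted p under 0.05 on chow (9.52% of all genes) and 3 of 21 on the high-fat diet (21.4% of all genes). Smpd1, the lysosomal sphingomyelinase that releases ceramide, had the smallest p among them on chow. It stood at 43.6, 45.2, 45.6 and 51.8 CPM in chow knockouts, against 52.1, 59.4, 73.2 and 64.3 CPM in chow controls, and at 46.3, 49.3, 48.8 and 43.6 CPM in high-fat knockouts, against 59.1, 54.5, 60.8 and 54.1 CPM in high-fat controls. The groups did not overlap on either diet. On chow 2 of 21 were lower without overlap, where 2.9% of all genes were. On the high-fat diet 2 of 21 were, where 7.78% of all genes were. Smpd1 had -0.42 on chow (SE 0.12, edgeR adjusted p = 0.353), -0.28 in high-fat livers (SE 0.12, 0.179) and -0.35 averaged (SE 0.08, 0.1002). Cerk, the kinase that makes ceramide 1-phosphate, had 0.47 averaged (SE 0.15, 0.142). Sgpp1, a sphingosine 1-phosphate phosphatase, had -0.49 on the high-fat diet (SE 0.15, 0.112).

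For diet in knockouts 2 of the 21 rose, where 5.21% of all genes did, and 2 fell, where 5.35% did. Sgms1, a Golgi sphingomyelin synthase, rose by 0.48 (SE 0.15, edgeR adjusted p = 0.0446), with 23.4 ± 3.33 CPM in high-fat knockouts and 16.8 ± 1.36 CPM in chow knockouts. Smpd3, the neutral sphingomyelinase, rose by 1.76 (SE 0.51, 0.0347), with 10.4 ± 4.94 and 3.14 ± 1.88 CPM in the same groups. Ugcg, which glucosylates ceramide, fell by 0.61 (SE 0.16, 0.0216), with 19.0 ± 2.92 and 29.0 ± 1.46 CPM, and Sgms2, the plasma membrane sphingomyelin synthase, fell by 0.69 (SE 0.20, 0.0323), with 74.9 ± 9.38 and 121 ± 31.9 CPM (SD, n = 4 in each group). In controls 0 of 21 passed edgeR and 2 had an unadjusted p under 0.05, Ugcg at -0.51 (SE 0.16, 0.0976) and Sgms1 at 0.43 (SE 0.15, 0.135). Smpd3 had 0.01 in controls (SE 0.48, 0.996), and its interaction of 1.75 did not pass (SE 0.69, edgeR adjusted p = 0.351). The interactions of the others were -0.32 for Sgms2 (0.696), -0.10 for Ugcg (0.900) and 0.05 for Sgms1 (0.947). Each of the 4 calls in knockouts was lost without some single livers, with the direction kept. Sgms1 lost it without chow knockout 2, 3 or 4, chow control 2 or high-fat knockout 1, 2 or 4 (adjusted p up to 0.120). Smpd3 lost it without chow knockout 2, 3 or 4 or high-fat knockout 1 or 2 (up to 0.109). Ugcg lost it without chow knockout 2 or 4 or high-fat knockout 1, 2 or 3 (up to 0.0925), and Sgms2 without chow knockout 1, 3 or 4 or any 1 high-fat knockout (up to 0.102).

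Genes that supply the acyl chains held 11 of 12 tested. Elovl1, the elongase that makes the very-long-chain acyl-CoA used by Cers2, fell by 0.78 with diet in controls (SE 0.13, edgeR adjusted p = 0.00614). It stood at 16.2, 16.6, 16.8 and 20.4 CPM in high-fat controls, against 30.6, 31.0, 31.9 and 27.1 CPM in chow controls, with no overlap. That held downwards for 3 of 11, where 7.23% of all genes had no overlap in either direction. In knockouts it stood at 22.2, 19.7, 17.2 and 22.2 CPM on the high-fat diet, against 21.9, 27.2, 21.7 and 25.7 CPM on chow, which did not pass (-0.25, SE 0.13, 0.219). The interaction of 0.54 did not pass (SE 0.19, adjusted p = 0.301). Elovl6, which extends palmitate to stearate, fell by 1.22 with diet in knockouts (SE 0.33, 0.0286) and had -1.19 in controls (SE 0.33, 0.0753). The Elovl6 call was lost without chow knockout 2 or 4 or high-fat knockout 2, 3 or 4 (up to 0.107), while Elovl1 passed without any 1 liver (0.00455 to 0.0298). For knockout 0 of 11 passed on either diet by edgeR, with 2 on chow (9.52% of all genes) and 1 on the high-fat diet (21.4%) at an unadjusted p under 0.05. Of 6 further synthesis genes, Sptlc3, Sptssb, Cers1, Cers3, Fa2h and Fads3, the last alone passed the filter, at 0.07 for knockout on chow (SE 0.29, 0.953) and 0.20 on the high-fat diet (SE 0.28, 0.693).

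Over the 16 livers, the genes closest to each of 3 members were sought by the root-mean-square difference of standardized log2 CPM among 9882 other genes that averaged 2 or more in log2 CPM. Among those for Degs1 were Aldh8a1 at 0.454 and Ndufaf1 at 0.464, where the median gene was at 1.30. For Cers2 they were Ndufa10 at 0.337, Odc1 at 0.360 and Phyh at 0.364, and for Sptlc2 they were Gna13 at 0.488, Cttn at 0.507 and Vps41 at 0.526. Cers2 was the member nearest to Degs1, at 0.572 and rank 42 of 9882, and Sptlc1 was next at 0.723 and rank 332. Sptlc2 at 1.46 and Cers6 at 1.45 lay beyond the median gene. The distances share the library effects of all 16 livers and are descriptions only. The Degs1 profile also holds its fall in both knockout groups, so nearness to it partly reflects lower values in knockouts.

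Promoter windows of Degs1, Cers2 and Cers6 are printed because they are the members whose windows held CACGTG, the only form of E-box searched. The windows are RefSeq sequence of GRCm38.p6, from 250 bases before to 50 after the annotated start. They lie at chr1:182282146-182282445 on the minus strand, chr3:95314940-95315239 on the plus strand and chr2:68861191-68861490 on the plus strand. The Degs1 and Cers2 windows lie inside the gene spans of the annotation used for names and lengths, chr1:182275772-182282804 and chr3:95314791-95323599. The starts used for these windows thus differ from the outermost starts of that annotation. Capitals mark the palindromic letters CACGTG, read the same on both strands. Other forms of E-box were neither searched nor marked, in these or the other members' windows.
Degs1: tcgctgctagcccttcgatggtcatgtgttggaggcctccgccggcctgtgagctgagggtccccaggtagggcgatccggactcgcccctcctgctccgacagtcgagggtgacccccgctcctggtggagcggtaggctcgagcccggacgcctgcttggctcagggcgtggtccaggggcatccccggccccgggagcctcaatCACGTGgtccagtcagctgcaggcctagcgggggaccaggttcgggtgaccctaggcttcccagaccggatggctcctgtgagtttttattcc
Cers2: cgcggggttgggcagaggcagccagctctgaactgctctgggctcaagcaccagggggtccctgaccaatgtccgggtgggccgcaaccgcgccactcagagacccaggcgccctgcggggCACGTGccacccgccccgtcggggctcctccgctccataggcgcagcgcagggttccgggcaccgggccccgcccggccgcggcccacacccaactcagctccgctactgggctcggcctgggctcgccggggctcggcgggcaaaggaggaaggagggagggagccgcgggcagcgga
Cers6: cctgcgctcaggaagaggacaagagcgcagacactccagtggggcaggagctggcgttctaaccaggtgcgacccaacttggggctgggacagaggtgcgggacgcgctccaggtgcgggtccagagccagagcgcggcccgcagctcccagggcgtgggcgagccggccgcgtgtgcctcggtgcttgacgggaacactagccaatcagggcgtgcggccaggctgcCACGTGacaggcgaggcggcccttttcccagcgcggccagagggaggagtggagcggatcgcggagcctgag
These were the 3 windows with CACGTG among 11 windows of the 10 members, each with 1 match (Cers2 has a further start without it), where it occurred in 7.15% of 32851 mouse promoter windows of 300 bases. Other short motifs, searched on both strands and allowed to share bases with one another, were CCAAT in 5 of 11 windows (37.4% of all), GGGCGG in 8 of 11 (35.7% of all) and TATAAA in 0 of 11 (13.6% of all). Degs1 held neither CCAAT nor GGGCGG, Cers2 held both and Cers6 held CCAAT. A match is a description of letters and not of binding.

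Markers of other liver cells gave the setting for these small differences. Summed over 6 genes each, hepatocyte markers were at 52280 to 70390 CPM in high-fat knockouts and 66310 to 102200 CPM in high-fat controls, with control 3 the highest, and at 106400 to 127000 CPM in chow knockouts and 96690 to 113400 CPM in chow controls. The lymphocyte sum was 28.4 to 65.2 CPM in high-fat knockouts and 23.6 to 40.5 CPM in high-fat controls. It was mostly Ptprc, at a mean of 29.3 CPM, with the other genes of that list at means of 0.356 to 1.14 CPM. Of 4 tested in that list, 1 had a value below 0 for knockout on the high-fat diet. Kupffer, endothelial, stellate and cholangiocyte sums overlapped between genotypes on both diets. In the knockout comparisons 0 of the marker genes of these lists passed edgeR. Over all genes 0.0139% did on chow and 0.111% on the high-fat diet. Outside the hepatocyte list at most 1 gene a list had an unadjusted p under 0.05, where 9.52% and 21.4% of all genes had. The hepatocyte list had a median log2 fold change of -0.45 for knockout on the high-fat diet. There 2 of 6 had an unadjusted p under 0.05, where 21.4% of all genes had. For diet in knockouts its median was -0.80, and 2 of 6 fell, where 5.35% of all genes did. These were Alb (-1.001, SE 0.16, edgeR adjusted p = 0.00265) and Tat (-1.41, SE 0.31, 0.0112). In that comparison 1 gene each of 3 other lists rose, where 5.21% of all genes did. Pdgfrb, 1 of 6 tested of the stellate list, rose by 0.82 (SE 0.19, edgeR adjusted p = 0.0144). Ptprc, 1 of 4 tested of the lymphocyte list, rose by 0.93 (SE 0.25, 0.0275). Cidec, 1 of 2 tested of the fat or pancreas list, rose by 4.17 (SE 0.87, 0.00893). Pdgfrb lost its call without chow knockout 2 or high-fat knockout 2 (up to 0.0612), and Ptprc without chow knockout 2 or 4 or high-fat knockout 1, 2 or 3 (up to 0.0861). Cidec kept its call without any 1 liver, but its groups overlapped and its value was 2.66 without high-fat knockout 1 (0.0335). The fat or pancreas sum was 22.6 to 63.2 CPM in high-fat knockouts, 24.5 to 42.6 CPM in high-fat controls, 12.6 to 22.8 CPM in chow knockouts and 14.6 to 28.8 CPM in chow controls. The part of these markers in the members' values in high-fat knockouts was not tested.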

How the data were processed

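Total RNA libraries (TruSeq Stranded with Ribo-Zero Gold, per the labels' protocols) of 16 livers were aligned with STAR 2.5.4a to GRCm38 and counted with featureCounts 1.5.1, per the submitters' processing notes. The deposited values are raw read counts per gene made by the authors, with no normalization; 53706 of 53801 gene IDs matched the annotation used for names and lengths. Counts were fitted here with edgeR 4.0.16 (TMM factors, filterByExpr with a minimum count of 10, quasi-likelihood test) in R 4.3.3, as 1 mean per group over all 16 livers, with Benjamini-Hochberg adjustment over 14351 genes and a threshold of 0.05. TPM used merged exon lengths. Within-group library pairs differed beyond sampling noise (chi-square per degree of freedom 13.45 to 139.74). The labels do not say more of how replicates were raised, so p-values measure the spread between these livers. Floors cover counting error only, since reads carry no molecular identifiers. DESeq2 1.42.0, limma 3.58.1 and the other alternatives are compared in the closing section. Named were all 10 members, genes of the other lists that passed or were among the 2 smallest p in a comparison, though not every one of these is printed, and the 3 nearest genes of Degs1, Sptlc2 and Cers2, of which 1 is not reported here. The members, lists and tests were chosen with earlier results of these data known. The scripts were tested on simulated data.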

Additional observations from a re-analysis of the deposited data

Results flagged for a closer look

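In groups of 4 livers, 6 of 36 member and group combinations held a liver whose gap to the nearest other exceeded Dixon's 95% critical value, which chance gives in about 1 of 20. High-fat control 3 accounted for 4 of them. It had 58.2 CPM of Sptssa, where the other high-fat controls had 23.3 to 28.9 CPM, and 34.6 CPM of Kdsr, where they had 21.6 to 22.6 CPM. It had 357 CPM of Cers2, where the others had 287.4 to 294.4 CPM, and 2.98 CPM of Cers5, where they had 2.20 to 2.24 CPM. Chow knockout 1 had 22.3 CPM of Sptlc1, where the other chow knockouts had 31.2 to 32.1 CPM. Chow knockout 4 had 2.12 CPM of Cers4, where the others had 3.41 to 3.56 CPM.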

How the results depend on the processing

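Over the members' log2 fold changes, 1146 alternative values kept direction and side of the threshold, 47 changed sign, 21 newly passed and 10 no longer passed; causes were not tested. For knockout on the high-fat diet the members called were 2 with DESeq2, 2 with no filter on low counts, 0 with only the groups compared and 0 when the unspliced share was a covariate. Over all genes these fits called 633, 964 of 36204, 1 of 13927 and 0, beside 16 in the main fit. For diet in knockouts the members called were 1 at an adjusted p of 0.10, 1 with DESeq2, 1 with no filter, 5 with limma-voom, 1 with only the groups compared and 4 when high-fat control 3 and chow knockout 1 were both left out. Over all genes the calls were, in that order, 2706, 2269, 1895 of 36204, 4345, 2793 of 13769 and 3273 of 14604. The main fit called 1516 of 14351. Averaged over the diets DESeq2 called 2 members and 330 of all genes, where edgeR called 25 of all genes. With the covariate 0 members were called for knockout on chow and 1 for diet in controls (Sptssa, 0.63). Over all genes that fit called 0 and 1157 in these comparisons. Leaving out 1 liver gave 0 to 1 members for knockout on chow and 0 to 2 for diet in knockouts. The 2 came without high-fat control 3, where 2914 of 14655 genes were called. The longest transcript as length put Cers2 at 291.3 TPM in chow controls and its share at 97.2%. Sign changes concerned values that had not passed. With no filter Sptlc2 was -0.00158 for knockout on chow. With limma-voom, diet in controls gave Sptssa -0.0929 and Kdsr -0.12. With the same tool the knockout effect averaged over the diets (the average below) gave Kdsr 0.00748 and Cers4 -0.00483, and the interaction gave Degs1 0.0783. Without both livers, diet in controls gave Sptssa -0.0874 and Kdsr -0.14, the average gave Sptssa 0.00543 and Kdsr 0.0524, and the interaction gave Sptlc2 -0.00929, Cers2 0.0125 and Degs1 0.14. With the covariate, knockout on chow gave Sptlc1 0.00484 and Sptlc2 -0.0451, diet in controls gave Sptlc1 0.0318 and Cers6 -0.0334, diet in knockouts gave Sptssa 0.12 and Degs1 0.0258, the average gave Sptlc2 -0.00347, Sptssa 0.24 and Kdsr 0.10, and the interaction gave Degs1 0.0393. Leaving out 1 liver, knockout on chow ranged -0.0292 to 0.0567 for Sptlc2 and -0.15 to 0.10 for Cers4, and diet in controls -0.14 to 0.0763 for Cers4, -0.10 to 0.23 for Cers6, -0.14 to 0.14 for Kdsr and -0.0876 to 0.48 for Sptssa. The average ranged -0.000257 to 0.13 for Cers4, -0.0916 to 0.0714 for Cers6 and -0.17 to 0.000371 for Kdsr, diet in knockouts -0.13 to 0.0057 for Sptlc2, and the interaction -0.26 to 0.12 for Degs1. No paired analysis was possible because the labels give the groups no shared replicate numbers, and their animal numbers do not overlap between groups. Leaving out 1 liver for the other lists' genes and medians was added after seeing the data. Depth limited Degs2 and the other genes under the filter on low counts.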
